A study of Rattus norvegicus with 12 samples.

Results

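Restriction factors are host proteins that block a step in the life cycle of a virus, and several members of the PARP family of ADP-ribose transferases are made in response to interferon. The transcripts of 10 such genes were followed in neonatal rat ventricular myocytes (NRVMs), the beating muscle cells of the newborn rat heart. They are the restriction factors Rsad2, Bst2, Samhd1, Ifitm2 and Ifitm3, the PARPs Parp9, Parp10, Parp12 and Parp14, and Dtx3l, the E3 ubiquitin ligase that pairs with PARP9. They were taken by gene symbol from the 18483 genes of the expression tables, and all 10 were present and passed the filter on low counts.

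NRVMs of Sprague-Dawley rats were transfected with siNeg, a negative control siRNA, or with siSlc39a2, an siRNA against Slc39a2, and then left untreated or given phenylephrine (PE), an alpha-adrenergic agonist that makes cardiomyocytes grow. This gave 4 groups of 3 samples, siNeg, siNeg PE, siSlc39a2 and siSlc39a2 PE, described as independent biological replicates, with no statement of whether they came from separate cell isolations. All groups were prepared by the same isolation method, kept in the same medium and transfected with an siRNA, and the labels give 36 h of PE while the culture methods of the study give a longer time. Slc39a2 encodes a zinc importer of the plasma membrane, and the comparisons ask how transcript levels change with its loss, with PE, and with both. The study lists a single siRNA sequence against Slc39a2. Effects of that transfected RNA itself, on other targets or otherwise, and effects of Slc39a2 loss cannot be told apart in these samples. The cells were enriched on a Percoll density gradient, which leaves some non-myocytes in the culture.

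Type I interferons act through a cell surface receptor whose signal reaches a DNA element called the interferon-stimulated response element (ISRE), built around a pair of GAAA repeats. Many antiviral genes carry such an element near their start, and their transcripts are low in resting cells. The interferon-induced PARPs attach ADP-ribose to proteins, and the Deltex ligase DTX3L forms a complex with PARP9 that joins this modification to ubiquitin signalling.

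Total counts per sample lay between 24065539 and 28603854, and 13967 genes were tested. Slc39a2 (NCBI gene 305846) had 50, 50 and 59 counts in siNeg, 95, 198 and 182 in siNeg PE, 21, 11 and 2 in siSlc39a2 and 31, 25 and 38 in siSlc39a2 PE. Slc39a2 was thus low in every sample and lower in each siSlc39a2 sample than in any siNeg sample. Its log2 fold change was -2.35 (SE 0.46, adjusted p = 9.80e-04) without PE and -2.33 (SE 0.38, adjusted p = 2.24e-04) with PE. All 10 cardiomyocyte markers examined, among them Tnnt2 and Myh6, were detected. They summed to 53200 to 54700 CPM (counts scaled to a common library size by the TMM method) in siNeg and 49600 to 55200 in siNeg PE, against 42600 to 43900 in siSlc39a2 and 42200 to 44100 in siSlc39a2 PE, so that knockdown and control samples did not overlap. In FPKM (fragments scaled to depth and gene length) the groups without PE overlapped, at 19200 to 21100 in siNeg and 19300 to 19600 in siSlc39a2. Myh6, a myosin heavy chain, fell by 1.10 on the log2 scale with the knockdown without PE (adjusted p = 4.50e-07) and was the marker of the 10 that passed 2-fold. Much of the fall of the CPM sum without PE was Myh6, at a mean of 15900 CPM in siNeg and 7410 in siSlc39a2. The other markers did not all move one way, with Atp2a2 at -0.29 (adjusted p = 0.00877 in edgeR) and Pln at 0.29 (adjusted p = 0.0556).

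Because the knockdown raised most of these transcripts together, the sequences upstream of their start sites are shown beside the values. RefSeq promoter windows of the GRCr8 build, from 250 bases before to 50 after the start, were matched for 9 of the 10 genes by NCBI gene identifier, all but Parp10. The core of the ISRE was searched as GAAANNGAAA on both strands, and the GAS element, another interferon-response motif, as TTCNNNGAA. The ISRE core occurred in 7 of the 9 windows (77.8%), and in 1312 of all 33469 windows (3.92%) and 485 of the 15750 windows of genes in the count table (3.08%). The genes were chosen with earlier results known and the motifs after the sequences were seen, so the shares of either motif are not a test. The 7 stretches that hold it are given 5′ to 3′ on the strand of the gene, with the matched letters in capitals. Where the match lies on the opposite strand, its reverse complement is in capitals. In Bst2, 2 matches overlap and are capitalised as a single run, and the runs of Parp12 and Dtx3l are cut short behind the start site.
Rsad2 (chr6:48788228-48788297, minus strand): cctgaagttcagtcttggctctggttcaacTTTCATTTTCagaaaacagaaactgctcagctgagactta
Bst2 (chr16:18255053-18255128, minus strand): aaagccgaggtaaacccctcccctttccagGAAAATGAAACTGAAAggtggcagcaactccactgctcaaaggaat
Ifitm2 (chr1:205482342-205482411, minus strand): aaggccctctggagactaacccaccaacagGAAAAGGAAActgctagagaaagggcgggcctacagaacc
Ifitm3 (chr1:205541763-205541832, minus strand): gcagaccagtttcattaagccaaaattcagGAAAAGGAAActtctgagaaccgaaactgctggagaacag
Parp12 (chr4:68850522-68850589, minus strand): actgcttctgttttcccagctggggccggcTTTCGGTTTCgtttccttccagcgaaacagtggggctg
Parp14 (chr11:78408028-78408097, plus strand): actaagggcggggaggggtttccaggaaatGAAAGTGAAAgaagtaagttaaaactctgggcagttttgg
Dtx3l (chr11:78320205-78320244, plus strand): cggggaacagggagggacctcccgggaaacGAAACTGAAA

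Counted from 0 at the start site, the ISRE core began at -147 in Rsad2, at -131 and -125 in Bst2, at -76 in Parp14, at -44 in Ifitm3, at -33 in Ifitm2, at -18 in Parp12 and at 10 in Dtx3l. The matched letters of Ifitm2 and Ifitm3 are the same. The GAS letters occurred in 4 of the 9 windows (44.4%), against 8.87% of all windows, at -137 in Bst2 where they overlap the ISRE match, at -153 in Samhd1, at -33 in Ifitm3 and at -87 in Parp14. The Parp9 window held neither motif, but it was set by a RefSeq start site that lies 1398 bases inside the span of the gene. The window therefore did not reach the outer end of Parp9. That span overlaps the span of Dtx3l, and the Dtx3l start site lies 184 bases from the outer end of Parp9. The ISRE match of Dtx3l thus lies inside the span of Parp9, near that end. A match describes letters in a window and is not evidence of binding.

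**Figure D1:**
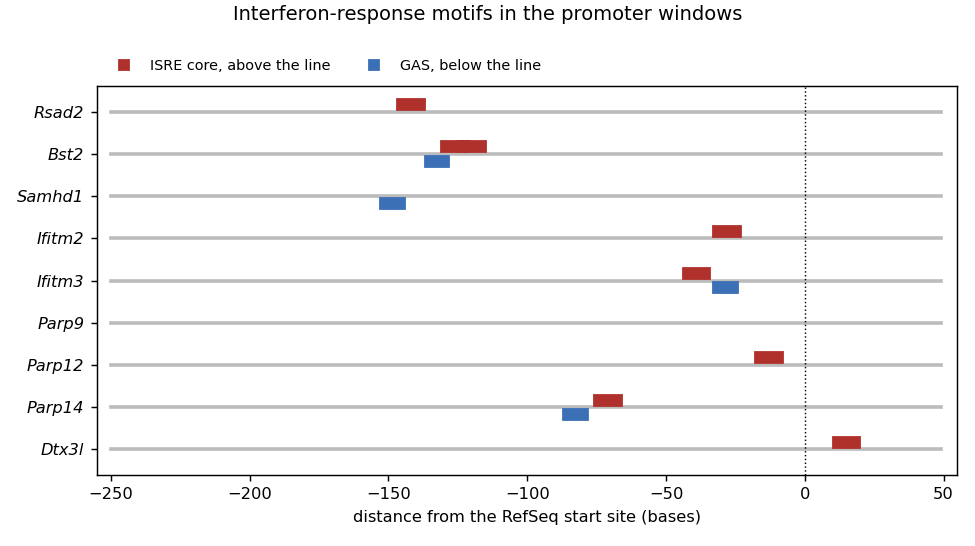
Position of the ISRE core (red, above the line) and the GAS letters (blue, below the line) in the RefSeq promoter windows of the 9 matched genes, in bases from the start site. The ISRE core was found in 7 windows, between -147 in Rsad2 and 10 in Dtx3l. Neither motif was found in that of Parp9, whose start site lies 1398 bases inside the span of the gene.

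After Slc39a2 knockdown without PE, 9 of the 10 genes rose beyond 2-fold, from 4.62-fold for Samhd1 to 183-fold for Rsad2. Ifitm2 rose by less, 1.26-fold. A gene is counted here when its log2 fold change passed 1 at an adjusted p below 0.05 in the quasi-likelihood test of edgeR. Of all genes tested, 4.57% were higher and 5.21% lower by that rule. At the adjusted p alone all 10 rose, and 22.8% of all genes tested were higher and 26.4% lower. The median log2 fold change of the 10 was 3.62 (range 0.33 to 7.51), and that of all genes tested was -0.02. In each of the 10 every siSlc39a2 sample lay above every siNeg sample, which was so for 27.9% of all genes tested.

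With PE in both arms, the same 9 genes were higher after the knockdown, from 3.18-fold for Samhd1 to 132-fold for Rsad2, beside 6.03% of all genes tested that were higher and 5.58% lower. At the adjusted p alone 9 rose, with 29.2% of all genes higher and 28.1% lower. The median log2 fold change was 3.41 (range 0.06 to 7.05), beside 0.01 over all genes. The groups did not overlap for these 9, as for 31.8% of all genes tested, and they overlapped for Ifitm2. In bulk RNA, fewer cells of a type and less RNA per cell cannot be told apart.

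**Figure D2:**
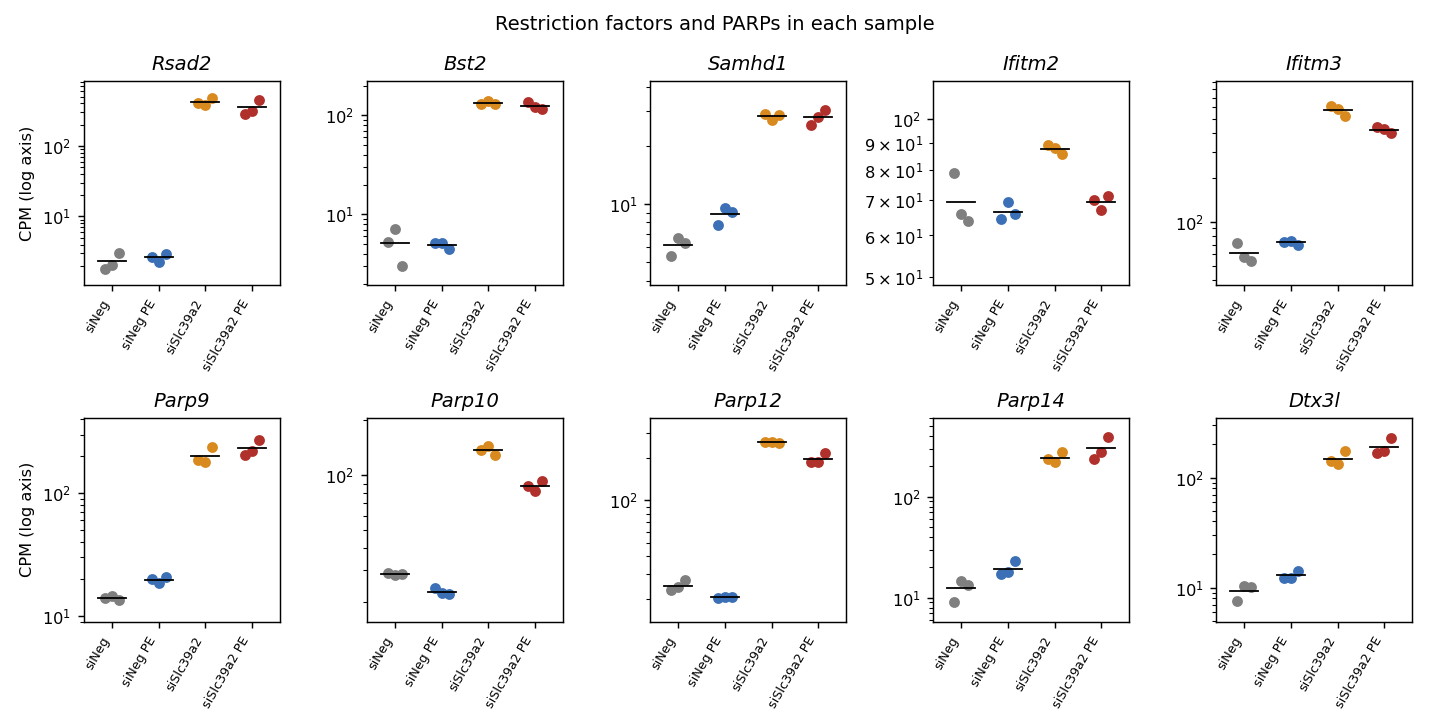
CPM of the 10 genes in each of the 12 samples on a log axis, with points for samples and a line at the mean of each group of 3. For every gene but Ifitm2, all 6 siSlc39a2 samples lie above all 6 siNeg samples.

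Rsad2 (NCBI gene 65190) encodes viperin, a radical SAM enzyme that makes a chain-terminating nucleotide and so stops viral RNA synthesis. It had 1.82, 2.08 and 3.03 CPM in siNeg, 2.69, 2.29 and 2.97 in siNeg PE, 409, 376 and 483 in siSlc39a2, and 286, 313 and 453 in siSlc39a2 PE. The lowest knockdown sample was far above the highest control sample, and the siNeg values rested on 46 to 77 counts. The log2 fold change with the knockdown was 7.51 (SE 0.23, adjusted p = 2.79e-11) without PE and 7.05 (SE 0.22, adjusted p = 5.13e-11) with PE. In siSlc39a2 PE the highest sample had 1.58 times the CPM of the lowest. Next to Rsad2 in RefSeq lies Cmpk2, a mitochondrial nucleotide kinase whose reaction makes the substrate of viperin. It went from 2.84, 3.71 and 5.56 CPM in siNeg to 359, 326 and 341 with the knockdown, and rose by 6.40 on the log2 scale (SE 0.22, adjusted p = 7.69e-11).

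Bst2 (NCBI gene 378947) encodes tetherin, a membrane protein that holds budding virus particles on the cell surface. It had 5.21, 7.05 and 3.03 CPM in siNeg, 5.16, 5.10 and 4.44 in siNeg PE, 129, 141 and 131 in siSlc39a2, and 135, 122 and 115 in siSlc39a2 PE. The knockdown groups lay close together and well above both control groups. The log2 fold change was 4.71 (SE 0.20, adjusted p = 6.75e-10) without PE, which is 26.1-fold, and 4.66 (SE 0.20, adjusted p = 8.74e-10) with PE, which is 25.3-fold.

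Samhd1 (NCBI gene 311580) encodes a dNTP hydrolase that lowers the nucleotides available for reverse transcription. It had 5.37, 6.67 and 6.30 CPM in siNeg, 7.77, 9.53 and 9.10 in siNeg PE, 29.2, 27.1 and 28.6 in siSlc39a2, and 25.5, 28.0 and 30.4 in siSlc39a2 PE. The siNeg PE samples all lay above the siNeg samples, and the knockdown samples with and without PE overlapped. Its log2 fold change with the knockdown was 2.21 (SE 0.11, adjusted p = 4.19e-09) without PE and 1.67 (SE 0.11, adjusted p = 5.09e-08) with PE.

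The IFITM proteins sit in cell and endosomal membranes and hinder the fusion of enveloped viruses. Ifitm3 (NCBI gene 361673) had 71.8, 57.6 and 54.3 CPM in siNeg, 73.0, 74.1 and 69.9 in siNeg PE, 618, 588 and 525 in siSlc39a2, and 443, 426 and 401 in siSlc39a2 PE. The 4 groups kept 3 separate levels, with siNeg and siNeg PE overlapping, siSlc39a2 PE higher and siSlc39a2 highest. Ifitm3 rose 9.43-fold with the knockdown (log2 fold change 3.24, SE 0.10, adjusted p = 3.59e-11) and 5.86-fold with PE in both arms (2.55, SE 0.10, adjusted p = 3.82e-10).

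Ifitm2 (NCBI gene 114709), of the same family and chromosome, had 78.9, 65.9 and 63.8 CPM in siNeg, 64.4, 69.6 and 65.8 in siNeg PE, 89.2, 87.9 and 85.8 in siSlc39a2, and 70.1, 67.1 and 71.3 in siSlc39a2 PE. The siSlc39a2 samples were highest and the other groups overlapped. Its log2 fold change was 0.33 (SE 0.08, adjusted p = 0.00328) without PE and 0.06 (95% confidence interval -0.12 to 0.24, adjusted p = 0.524) with PE. Expected counts of Ifitm2 were not whole in any of the 12 samples, so some of its reads are shared with other genes and its change is uncertain. Those of Ifitm3 were whole in all 12, and which genes share reads with Ifitm2 was not tested. The FPKM ratio of Ifitm3 to Ifitm2 was 0.923 ± 0.0299 in siNeg and 6.91 ± 0.438 in siSlc39a2 (SD, n = 3 each). A neighbour of Ifitm2 in RefSeq, Ifitm1, was looked up after the values of Ifitm2 and Ifitm3 were seen. It had 58.8, 47.0 and 41.7 CPM in siNeg and 58.3, 53.4 and 45.0 in siSlc39a2, and its log2 fold change was 0.09 (95% confidence interval -0.19 to 0.36, adjusted p = 0.565).

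PARP9 and DTX3L work as a complex, and their genes overlap head to head in RefSeq. Parp9 (NCBI gene 303905) had 13.9, 14.4 and 13.5 CPM in siNeg, 20.0, 18.4 and 20.7 in siNeg PE, 185, 178 and 239 in siSlc39a2, and 204, 219 and 272 in siSlc39a2 PE. Dtx3l (NCBI gene 498089) had 7.50, 10.3 and 10.2 CPM in siNeg, 12.3, 12.2 and 14.2 in siNeg PE, 140, 133 and 175 in siSlc39a2, and 166, 176 and 227 in siSlc39a2 PE. Both genes were highest in replicate 3 of each knockdown group. Parp9 rose by a log2 fold change of 3.85 (SE 0.14, adjusted p = 1.08e-10) without PE and 3.56 (SE 0.13, adjusted p = 2.27e-10) with PE. Dtx3l rose by 3.99 (SE 0.16, adjusted p = 5.02e-10) and 3.88 (SE 0.16, adjusted p = 6.40e-10). Counts of both were not whole in 11 of 12 samples. There the fractions of the 2 genes made up whole numbers together, as with 352.68 and 190.32 counts in siNeg replicate 1. Reads were thus divided between these 2 genes, and their levels and ratio are not independent. How many reads were divided is not known. The sources used here do not say whether reads were counted by strand, so reads from the overlap cannot be told apart. The FPKM of Parp9 over that of Dtx3l was 2.09 ± 0.366 in siNeg and 1.84 ± 0.0591 in siSlc39a2, and with PE it was 2.22 ± 0.0339 and 1.66 ± 0.0640 (SD, n = 3 each).

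Parp14 (NCBI gene 303903), a large mono-ADP-ribosyltransferase with macrodomains, lies on chromosome 11 close to Dtx3l. It had 9.04, 14.7 and 13.3 CPM in siNeg, 17.2, 18.0 and 23.0 in siNeg PE, 239, 220 and 275 in siSlc39a2, and 239, 279 and 386 in siSlc39a2 PE. In siSlc39a2 PE, replicate 3 had 1.62 times the CPM of replicate 1. The log2 fold change with the knockdown was 4.30 (SE 0.21, adjusted p = 4.21e-09) without PE and 3.96 (SE 0.21, adjusted p = 8.01e-09) with PE, or 19.7-fold and 15.5-fold.

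Parp12 (NCBI gene 362343), a mono-ADP-ribosyltransferase with zinc fingers that bind RNA, had 23.1, 24.1 and 27.0 CPM in siNeg, 20.2, 20.6 and 20.4 in siNeg PE, 261, 262 and 258 in siSlc39a2, and 188, 187 and 216 in siSlc39a2 PE. None of the 4 groups overlapped. Its log2 fold change was 3.39 (SE 0.08, adjusted p = 2.20e-12) without PE and 3.27 (SE 0.08, adjusted p = 4.02e-12) with PE. Parp10 (NCBI gene 102548778), a mono-ADP-ribosyltransferase, had 29.1, 28.4 and 28.8 CPM in siNeg, 23.9, 22.5 and 22.3 in siNeg PE, 138, 145 and 129 in siSlc39a2, and 87.8, 81.7 and 93.1 in siSlc39a2 PE. Here, too, the 4 groups stood apart. Parp10 rose by 2.25 (SE 0.07, adjusted p = 3.24e-11) without PE and 1.93 (SE 0.07, adjusted p = 1.93e-10) with PE on the log2 scale. It overlaps Plec in RefSeq and its counts were not whole in any of the 12 samples, and those of Parp12 were not whole in 4, so part of their reads is shared with other genes.

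**Figure D3:**
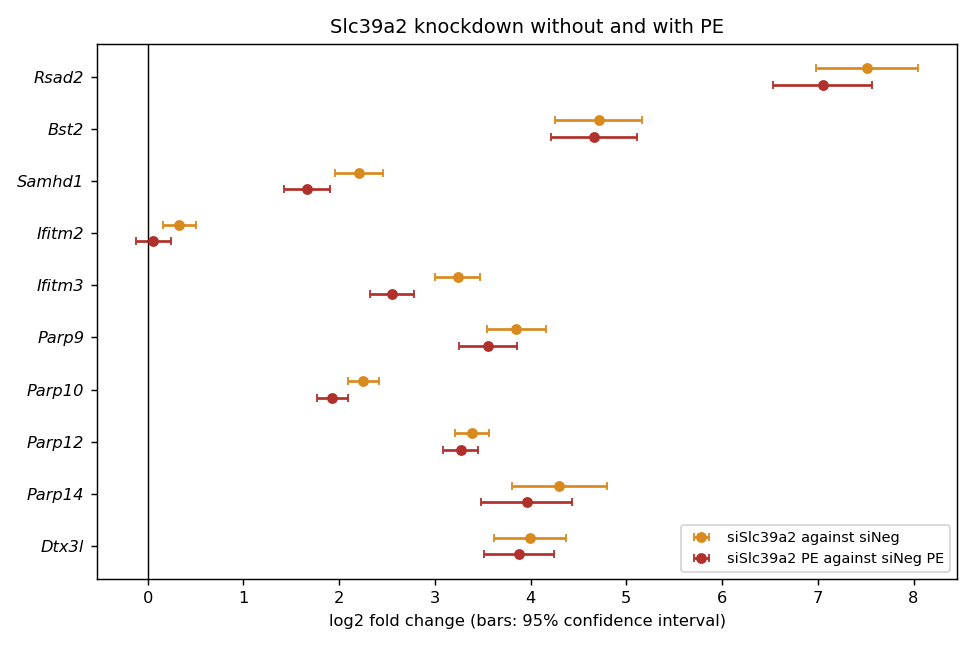
Log2 fold change of each gene with Slc39a2 knockdown, without PE (orange) and with PE (red), with 95% confidence intervals. The values run from 7.51 for Rsad2 to 0.33 for Ifitm2 without PE, and every gene but Ifitm2 lies beyond a log2 fold change of 1 in both comparisons.

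Levels of different genes were compared per transcript length, in FPKM. In siNeg the 2 IFITM genes led with 122 ± 11.0 for Ifitm2 and 112 ± 13.8 for Ifitm3 (SD, n = 3 each), and their samples overlapped. Parp10 (8.39 ± 0.137), Bst2 (7.06 ± 2.75) and Parp12 (7.02 ± 0.699) followed, with each overlapping the next in order. Parp9 (4.31 ± 0.180) came next by mean. It lay below every sample of Parp10 and Parp12 but overlapped Bst2, whose lowest sample had 4.32. Then came Samhd1 (2.60 ± 0.335), Dtx3l (2.11 ± 0.371) and Parp14 (1.68 ± 0.431), which overlapped in that order. Rsad2 was lowest at 0.627 ± 0.182.

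In siSlc39a2 the order of FPKM levels was Ifitm3 (1170 ± 85.3), Bst2 (204 ± 7.79), Ifitm2 (169 ± 2.75), Rsad2 (126 ± 18.3), Parp12 (81.4 ± 0.668), Parp9 (68.7 ± 12.5), Parp10 (44.2 ± 1.87), Dtx3l (37.6 ± 8.02), Parp14 (36.6 ± 4.72) and Samhd1 (13.2 ± 0.612). Parp12 overlapped Parp9, and Parp10, Dtx3l and Parp14 overlapped in that order. Rsad2 had moved from rank 10 to rank 4, and Samhd1 from rank 7 to rank 10. The FPKM sum of the 10 genes went from 268 ± 23.1 in siNeg to 1950 ± 54.8 in siSlc39a2, and was 304 ± 12.7 in siNeg PE and 1510 ± 33.1 in siSlc39a2 PE. Ifitm2 and Ifitm3 made up 87.3% ± 1.88 of that sum in siNeg and 68.6% ± 2.79 in siSlc39a2. Parp10 stood at 1.20 ± 0.0980 times the FPKM of Parp12 in siNeg and at 0.544 ± 0.0270 times in siSlc39a2.

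PE with the control siRNA moved these genes little, and in different directions. Samhd1, Parp9, Parp14 and Dtx3l rose and Parp10 and Parp12 fell at an adjusted p below 0.05, that is 4 higher and 2 lower of 10, where 24.0% of all genes tested were higher and 25.7% lower. The median log2 fold change of the 10 was 0.22 (range -0.33 to 0.65), below 2-fold throughout. The comparison shares its siNeg samples with that of the knockdown. Values were 0.53 for Samhd1 (SE 0.11, adjusted p = 0.00235), 0.50 for Parp9 (SE 0.13, adjusted p = 0.00823), 0.65 for Parp14 (SE 0.21, adjusted p = 0.0207) and 0.46 for Dtx3l (SE 0.16, adjusted p = 0.0318). The calls of Parp14 and Dtx3l rested on single samples, since without siNeg replicate 1 their adjusted p was 0.09 and 0.136, and without siNeg PE replicate 3 it was 0.0917 and 0.11. Parp10 fell by 0.33 (SE 0.07, adjusted p = 0.00243) and Parp12 fell by 0.28 (SE 0.08, adjusted p = 0.00942), and neither overlapped siNeg. Rsad2, Bst2 and Ifitm2 did not pass, with 95% confidence intervals of -0.46 to 0.85, -0.55 to 0.43 and -0.24 to 0.12. Ifitm3 had 0.24 (95% confidence interval 0.02 to 0.46, adjusted p = 0.0535), and without siNeg replicate 1, its highest siNeg sample, it had 0.37 (adjusted p = 0.00354). Of 12 alternative fits, 6 put Ifitm3 below an adjusted p of 0.05, and 1 put Parp9 above it.

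PE after the knockdown lowered 4 of the 10 and raised 1, beside 29.3% of all genes tested that were lower and 30.7% that were higher at an adjusted p below 0.05. The median log2 fold change was -0.19 (range -0.65 to 0.35). Parp10 fell by 0.65 (SE 0.07, adjusted p = 6.36e-06), Ifitm3 fell by 0.45 (SE 0.09, adjusted p = 0.00131), Parp12 fell by 0.40 (SE 0.07, adjusted p = 3.45e-04) and Ifitm2 fell by 0.33 (SE 0.08, adjusted p = 0.00257). For these 4 genes every siSlc39a2 PE sample lay below every siSlc39a2 sample. Dtx3l, with 0.35 (SE 0.14, adjusted p = 0.0433), overlapped between the groups, and its adjusted p was 0.213 without siSlc39a2 PE replicate 3, 0.0515 without siSlc39a2 PE replicate 2, 0.135 without siSlc39a2 replicate 1 and 0.16 without siSlc39a2 replicate 2. The log2 fold changes of Rsad2 (-0.27, adjusted p = 0.153), Bst2 (-0.11, adjusted p = 0.573), Samhd1 (-0.02, adjusted p = 0.901), Parp9 (0.21, adjusted p = 0.14) and Parp14 (0.30, adjusted p = 0.159) did not pass. Single samples decided 3 of these, with adjusted p of 0.00526 for Rsad2 without siSlc39a2 PE replicate 3, 0.0171 for Parp9 without siSlc39a2 replicate 3 and 0.0491 for Parp14 without siSlc39a2 PE replicate 1. In siSlc39a2 PE, replicate 3 had the highest CPM for 8 of the 10 genes and the lowest for Bst2 and Ifitm3.

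**Figure D4:**
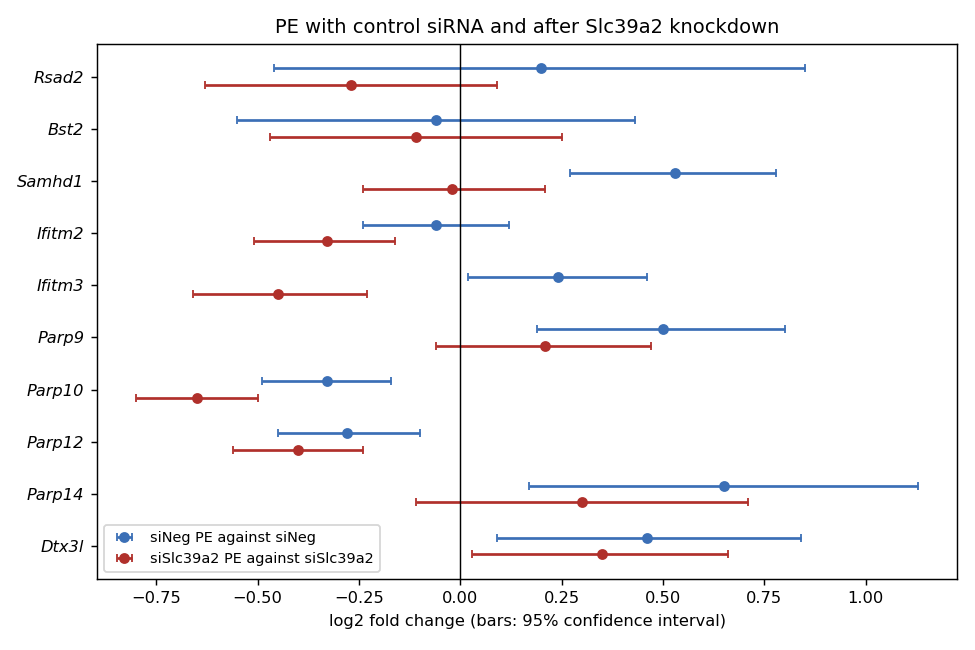
Log2 fold change of each gene with PE, in siNeg cells (blue) and in siSlc39a2 cells (red), with 95% confidence intervals. Parp10 and Parp12 lie below 0 in both, and Ifitm3 has 0.24 in siNeg cells and -0.45 in siSlc39a2 cells.

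Whether the knockdown effect differed with PE was tested by the interaction, the log2 fold change with PE less that without. Ifitm3 alone passed, with -0.69 (SE 0.13, adjusted p = 0.0131), beside 1.88% of all genes tested that were lower and 1.73% that were higher. Its adjusted p stayed below 0.05 under all 18 alternatives. All 10 estimates were negative, with a median of -0.31 (range -0.69 to -0.05) beside 0.03 over all genes. Those of Bst2 and Dtx3l were positive in some fits by limma on FPKM or without 1 sample, at most 0.22. Samhd1 had -0.54 (95% confidence interval -0.89 to -0.20, adjusted p = 0.0688) and Parp10 had -0.32 (95% confidence interval -0.55 to -0.10, adjusted p = 0.0958). Single samples also decided Ifitm2, whose -0.27 (adjusted p = 0.238) became -0.38 (adjusted p = 0.0321) without siNeg replicate 1, and Parp10, which had -0.41 (adjusted p = 0.0351) without siSlc39a2 replicate 3. The interval was widest for Rsad2, from -1.22 to 0.28.

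The median log2 fold change of 12 other PARP family genes with the knockdown was 0.07. Of these 12, 4 rose beyond 2-fold, beside 4.57% of all genes tested. They were Zc3hav1, the antiviral RNA-binding protein ZAP (2.35, SE 0.15, adjusted p = 3.89e-08), Parp11 (1.22, SE 0.11, adjusted p = 1.53e-06), the DNA repair enzyme Parp3 (1.08, SE 0.08, adjusted p = 1.37e-07) and Parp8 (1.04, SE 0.16, adjusted p = 1.39e-04). Zc3hav1 had 22.7, 28.7 and 30.3 CPM in siNeg and 140, 128 and 148 in siSlc39a2, with no overlap. Parp1, the main nuclear PARP of the DNA damage response, fell by 0.45 on the log2 scale (SE 0.05, adjusted p = 1.02e-05), and Parp16 fell by 0.32 (SE 0.07, adjusted p = 0.00292). With PE in both arms, 4 of the 12 were higher, namely Zc3hav1, Parp3, Parp8 and Tiparp, beside 6.03% of all genes tested. The median of the 12 was then 0.23.

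Among 25 other restriction factors tested of 33 listed, 17 rose beyond 2-fold and 1 fell, with a median log2 fold change of 1.88. Of all genes tested, 4.57% rose and 5.21% fell by that rule. With PE in both arms 16 rose, with a median of 1.64, beside 6.03% of all genes tested. Samd9l had the highest value at 6.41 (SE 0.33, adjusted p = 5.71e-09), followed by Cmpk2, its paralogue Samd9 (5.51, SE 0.36, adjusted p = 5.94e-08) and the Schlafen gene Slfn4 (5.30, SE 0.33, adjusted p = 3.94e-08). Counts of Samd9l and Slfn4 were not whole, so their changes are uncertain. The gene that fell, Apobec1, a cytidine deaminase that edits RNA, had 13, 14 and 12 counts with siNeg against 2, 9 and 4 with siSlc39a2 (log2 fold change -1.48, SE 0.47, adjusted p = 0.0187). In the interaction 3 of the 25 passed, all lower, beside 1.88% of all genes tested. They were Slfn2 (-1.06, adjusted p = 2.21e-04), Znfx1 (-0.42, adjusted p = 0.0421) and Pml (-0.36, adjusted p = 0.032).

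Genes of the ADP-ribose hydrolase families and the other Deltex ligases were also examined, chosen by family and not by the activity of each protein. Of 10 tested, none passed 2-fold with the knockdown without PE in edgeR, DESeq2 or limma, 4 had an unadjusted p below 0.05, and the median log2 fold change was -0.01 (range -0.35 to 0.65). At the adjusted p of edgeR the glycohydrolase Parg (0.57, adjusted p = 0.00231) and Adprhl1 (0.65, adjusted p = 5.88e-05) rose and Dtx3 fell by 0.33 (adjusted p = 0.00491). Of all genes tested, 22.8% were higher and 26.4% lower by that rule. With PE, 2 of the 10 rose and 5 fell at the adjusted p in siNeg cells, where 24.0% of all genes tested were higher and 25.7% lower. After the knockdown 2 rose and 6 fell with PE, where 30.7% of all genes tested were higher and 29.3% lower. The log2 fold change of Adprhl1 with PE was 1.01 (SE 0.09, adjusted p = 3.51e-06) in siNeg cells and 1.31 (SE 0.09, adjusted p = 1.76e-07) after the knockdown. The macrodomain hydrolases Macrod1 (-1.26, SE 0.15, adjusted p = 1.94e-05) and Macrod2 (-1.59, SE 0.18, adjusted p = 1.41e-05) fell with PE after the knockdown. Macrod2 also passed the interaction, at -1.10 (SE 0.25, adjusted p = 0.0274).

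**Figure D5:**
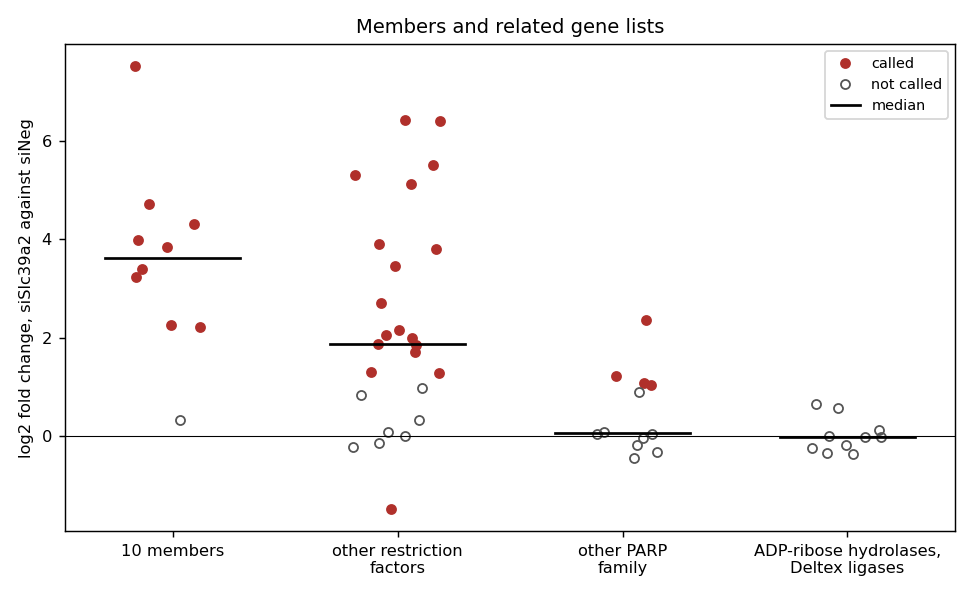
Log2 fold change of siSlc39a2 against siNeg for the 10 genes and for 3 related lists. Points are genes, filled where the change passed 2-fold and an adjusted p below 0.05, and lines are medians, at 3.62 for the 10 genes, 1.88 for other restriction factors, 0.07 for other PARP family genes and -0.01 for ADP-ribose hydrolases and Deltex ligases.

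Of 12 genes of interferon signalling, 8 rose beyond 2-fold with the knockdown, beside 4.57% of all genes tested. Their median log2 fold change was 2.42 over the list of 12. With PE in both arms 8 rose, beside 6.03% of all genes tested, and the median was 2.16. Ifnb1, which encodes interferon beta, had 0 counts in all 6 siNeg and siNeg PE samples, 246, 242 and 189 in siSlc39a2 and 46, 34 and 39 in siSlc39a2 PE. Set against 3 counts per library it was at least 68.7-fold higher without PE and at least 13.2-fold higher with PE. Both bounds lie above the medians of the list, so the medians could not change with Ifnb1 at these bounds. Irf7, a transcription factor that amplifies interferon genes, rose by 7.11 (SE 0.16, adjusted p = 1.68e-12), and Usp18, which restrains interferon receptor signalling, rose by 5.23 (SE 0.09, adjusted p = 2.56e-13) on the log2 scale. After the knockdown, PE lowered 9 of these 12 genes and raised 1 at an adjusted p below 0.05. Of all genes tested, 29.3% were lower and 30.7% higher in that comparison.

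For each of the 10 genes, the gene with the nearest pattern was the one with the smallest root-mean-square difference of log2 CPM over the 12 samples, each gene centred on its own mean. Parp14 lay nearest to Dtx3l (0.15), and Parp9 (0.12) and Dtx3l (0.14) lay nearest to Ddx58, which encodes the RNA sensor RIG-I. Parp10 lay nearest to Plekha4 (0.11), Bst2 to the galectin Lgals9 (0.16), Samhd1 to the caspase-8 regulator Cflar (0.15) and Ifitm2 to Dtnbp1 (0.07). Ifitm3 was closest to LOC100364500 (0.14) and Rsad2 to LOC102555634 (0.37). On log2(FPKM + 1) the nearest gene changed for 4 of the 10, to Oas1a for Rsad2, Ripk2 for Samhd1, Dtx3l for Parp9 and Parp9 for Dtx3l. Because reads were divided between Parp9 and Dtx3l, the likeness of that pair may be partly built in. The points share libraries, and 6 of the 12 are knockdown samples.

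Markers of other cells that such cultures can hold were summed beside these results. The 9 fibroblast markers, all in the table, summed to between 13900 and 18400 CPM in siNeg and between 5340 and 5650 in siSlc39a2, with 9180 to 11800 in siNeg PE and 3580 to 4950 in siSlc39a2 PE. The 12 macrophage markers in the table, of 13 listed, summed to between 91.9 and 127 CPM in siNeg and between 49.3 and 61.6 in siSlc39a2, with 45.1 to 58.6 in siNeg PE and 36.5 to 43.7 in siSlc39a2 PE. Both sums were lower in siSlc39a2 than in siNeg, while the 10 genes were higher, but the members of each list did not all move one way. Much of the macrophage sum was Lyz2, at a mean of 76.7 CPM in siNeg and 35.6 in siSlc39a2. Of the 11 macrophage markers tested, 2 passed 2-fold as lower with the knockdown without PE and 0 with PE. Aif1 alone passed as higher, with a log2 fold change of 1.49 (adjusted p = 0.00196) without PE and 1.20 (adjusted p = 0.0151) with PE. Cd14 was at -0.01 (adjusted p = 0.968) without PE. Much of the fibroblast sum was Col1a1, at a mean of 10800 CPM in siNeg and 3350 in siSlc39a2. Of the 9 fibroblast markers, 5 passed 2-fold as lower with the knockdown both without and with PE, while Tcf21 rose by 0.34 (adjusted p = 0.00236) and Pdgfra was at 0.12 (adjusted p = 0.439) without PE. The 8 endothelial markers lay between 14.2 and 22.0 CPM in all samples, and 3 lymphocyte markers, of 7 listed, summed to at most 0.241. No marker in the table was at 0 in all 12 samples. The part of these cells in the results was not tested.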

How the data were processed

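RNA-seq of 12 NRVM samples in 4 groups was analysed from gene tables. The authors deposited expected counts, which divide reads that match more than 1 gene, and FPKM values of the same 18483 genes. The submitters' processing notes name HISAT, Bowtie2 and the Rnor_6.0 build, and the counting program is not given in the sources used here. Of the genes, 70.0% had whole counts (within 1e-06) in every sample. Total counts were between 24065539 and 28603854 per sample, and counting precision is that of reads, not molecules. No sample was a copy of another of its group (chi-square over degrees of freedom 4.73 to 33.3).

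Expected counts were rounded, and the filterByExpr function (edgeR 4.0.16, R 4.3.3) removed 4516 genes with low counts. After TMM normalization, all samples were fitted in 1 model of 4 groups (8 residual degrees of freedom) and tested by quasi-likelihood F-tests, with p-values adjusted by the Benjamini-Hochberg method over 13967 genes. Standard errors are the log2 fold change divided by the root of F. The study used limma after normalizeBetweenArrays, which was run as an alternative on log2(FPKM + 1) and log2(FPKM + 0.1). DESeq2 1.42.0, RLE size factors, no filter, the replicate number as a block and leaving out each sample in turn were tried as well. The p-values measure the spread between these samples, which may be partly technical. The fit was tested on simulated counts with the same spread for every gene and changes beyond 2-fold in genes without low counts. There edgeR recovered 200 of 200 changed genes with 1 false call among 13804, by the rule that includes the fold change threshold. Smaller changes, calls at the adjusted p alone and the interaction were not simulated, so this says nothing about them.

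The 10 genes and all lists were chosen with earlier results of these data known, and the motifs after the sequences were seen. Genes named in the text are the 10, Slc39a2, up to 4 called genes with the largest changes of each list and any called lower, and the nearest gene of each of the 10, of which 1 is not reported here. Others were chosen after their values were seen (Ifitm1, Parp1, Parp16, Tiparp, Parg, Adprhl1, Macrod1, Macrod2, Dtx3, Slfn2, Znfx1, Pml and the cell type markers given with values). Promoter windows and gene order are from RefSeq GRCr8, which is not the build of the files. No coordinates were converted.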

Additional observations from a re-analysis of the deposited data

Results flagged for a closer look

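The effect of the knockdown on Ifitm3 differed between cells with and without PE. The interaction was -0.69 on the log2 scale (SE 0.13, adjusted p = 0.0131 from edgeR), since the knockdown raised Ifitm3 9.43-fold without PE and 5.86-fold with PE. All 3 siSlc39a2 PE samples (401 to 443 CPM) lay below all 3 siSlc39a2 samples (525 to 618 CPM).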

How the results depend on the processing

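Under 660 alternatives to the log2 fold changes of the 10 genes, 616 kept direction and side of the threshold, 14 lost a call, 18 gained one and 12 changed sign. With the knockdown, with and without PE, no direction or call changed and 9 genes were called in every alternative. By limma on log2(FPKM + 1), 610 genes were called with the knockdown without PE, 674 with PE, 287 with PE in siNeg cells and 583 with PE after the knockdown (by edgeR 1366, 1621, 922 and 1469), and 2 of the other PARP genes in place of 4.

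The interaction was passed by 3 of the 10 genes by DESeq2, by 2 with the replicate block, by 2 by limma on log2(FPKM + 1), and by 1 to 2 leaving out 1 sample. Over all genes the number passing was 504 in edgeR, 825 in DESeq2, 1053 with the replicate block, 805 by limma on log2(FPKM + 1) and 255 to 537 leaving out 1 sample. It was more than 1.5 times lower than 504 without siNeg replicate 2, siNeg PE replicate 1 or 2, siSlc39a2 replicate 1 or 2, or siSlc39a2 PE replicate 2. Samhd1 passed by DESeq2 (adjusted p = 0.0195), limma (0.0489) and with the block (0.0245), and Parp10 by DESeq2 (0.0391).

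Sign changes were all in values that did not pass. With PE in siNeg cells they were Bst2 (-0.32 to 0.25 leaving out 1 sample) and Ifitm2 (0.08 by limma, -0.12 to 0.04 leaving out 1 sample). PE after the knockdown gave Samhd1 -0.08 to 0.03. The interaction of Bst2 was 0.01 by limma on log2(FPKM + 1) and -0.36 to 0.22 leaving out 1 sample, and that of Dtx3l was 0.19 and 0.14 by limma and -0.27 to 0.02 leaving out 1 sample. The cause was not tested.

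Deviations of same-numbered samples from their group means correlated between -0.0904 and 0.32, not above 0.1 in every pair for any 2 groups. Their mean was positive for every 2 groups, from 0.00613 for siNeg and siSlc39a2 to 0.192 for siNeg and siNeg PE. Whether same-numbered samples belong together is thus not settled. The main model did not take the numbers as pairs, and the block was run as an alternative. With the replicate block, Ifitm3 rose with PE in siNeg cells (adjusted p = 0.00693), and after the knockdown PE lowered Rsad2 (0.00389) and raised Parp9 (0.0403) and Parp14 (0.0412).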
